A study of Mus musculus with 6 samples.

Results

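The enzymes described here attach glutathione, glucuronic acid or sulfate to other molecules, and their transcripts were measured in the liver of pregnant mice. Members were all genes whose Ensembl ID maps to a symbol of the *Gst* classes a, m, p, t, k, o and z, of *Ugt1a*, *Ugt2a*, *Ugt2b* and *Ugt3a*, or of *Sult1* to *Sult5*, pseudogenes left out, with at least 10 reads summed over the libraries. The counts covered 56691 genes, of which 62 carried such a symbol. Of these, 52 reached 10 reads and were kept, namely 21 glutathione transferases, 16 UDP-glucuronosyltransferases and 15 sulfotransferases. The 10 others had between 0 and 8 reads in all.

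Liver RNA came from 3 KPF dams (replicates 1, 2 and 3) and 3 WPF dams (replicates 2, 3 and 4), all C57BL/6J females that were fed a high-fructose diet (HFrD) through pregnancy and were killed before delivery. KPF dams were h*Chrebp* KO mice, in which both alleles of *Mlxipl*, the gene of carbohydrate response element binding protein (ChREBP), are floxed and the albumin promoter drives Cre in hepatocytes only. WPF dams are called WT in the sample labels, whereas the methods of the study describe them as *Chrebp* flox/flox mice without Cre. Males of the matings were *Chrebp* flox/flox, and ages of the dams were not given. Other liver cells keep the gene in both groups, and in bulk RNA fewer cells of a type and less RNA per cell cannot be told apart. The comparison asks how expression in the liver differs when hepatocytes lack ChREBP under HFrD.

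Conjugation makes reactive or fat-soluble compounds easier to excrete. Glutathione transferases join the thiol of glutathione to electrophiles such as products of lipid peroxidation, and most of them are cytosolic. UDP-glucuronosyltransferases of the endoplasmic reticulum move glucuronic acid from UDP-glucuronic acid onto bilirubin, steroids, bile acids and drugs, and sulfotransferases move sulfate from PAPS onto phenols, steroids and bile acids. The liver is the main site of all these reactions, and many of these genes are induced by xenobiotic receptors or by NRF2, the factor that binds antioxidant response elements.

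The libraries held between 10694496 and 14496630 reads counted on genes. Levels are given as FPKM (fragments per kilobase of exon, scaled to the counted reads of the library) after rescaling by the TMM factors of edgeR, which ranged from 0.891 to 1.18. *Mlxipl* (ENSMUSG00000005373) had levels of 32.4, 126.3 and 153.2 FPKM in KPF1, KPF2 and KPF3 and of 173.5, 227.6 and 158.7 FPKM in WPF2, WPF3 and WPF4. The groups did not overlap, and the level was 1.79-fold higher in WPF. It was not called, because its unadjusted p was not under 0.05 (log2 fold change −0.84, SE 0.53, unadjusted p = 0.152 by edgeR's quasi-likelihood test). Counts over a whole gene do not show how much of the floxed part was lost. Hepatocyte markers were abundant in every library (summed level of 8 genes 37700 to 81700 FPKM), none of the 8 was called, and 4 placental markers had 0 reads. Of 9 stellate cell and fibroblast markers 5 were called higher in KPF, with summed levels of 60.0, 156.0 and 23.6 FPKM in KPF1, KPF2 and KPF3 against 15 to 18.2 in WPF. An adipocyte marker was called higher too (1 of 1 tested; the 5 markers summed to 10.4, 9.74 and 2.2 FPKM in KPF and 1.92 to 3.04 in WPF, with *Lep* at 0 reads), as was 1 of 7 sinusoidal endothelial markers (23.5 to 37.0 against 23.4 to 27.0 FPKM). None of the tested markers of cholangiocytes (2 of 7 genes tested), Kupffer cells (7 of 7) or intestine (1 of 5) was called. The part of these other cells in the results below was not tested.

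The mu class of glutathione transferases, the *Gstm* genes, had more calls than any other class. Of its 7 genes tested, 4 were called lower (57.1%, against 3.98% of all genes tested). All 7 lie in 1 cluster on chromosome 3, and in the coordinates of the table (GRCm39 in the submitters' notes) the cluster runs from *Gstm5* at chr3:107803137-107806002 on the plus strand to *Gstm4* at chr3:107947724-107952210 on the minus strand. *Gstm7* (chr3:107833650-107839133), *Gstm6* (chr3:107846163-107851065), *Gstm3* (chr3:107871012-107876599), *Gstm2* (chr3:107889018-107893769) and *Gstm1* (chr3:107919571-107925289) lie between them, all on the minus strand. The promoters of the 4 members called lower in KPF are shown because these neighbours were called in the same direction. Each is the RefSeq window from 250 bases before to 50 bases after a transcription start in GRCm38.p6, an older build than that of the table, read 5′ to 3′ on the minus strand. Capitals mark runs of at least 14 bases that also stand in another of the 4 windows. For *Gstm1* and *Gstm4*, which have 2 windows each, 1 is printed. They lie at chr3:108017769-108018068 (*Gstm1*), chr3:107986371-107986670 (*Gstm2*), chr3:107969125-107969424 (*Gstm3*) and chr3:108044807-108045106 (*Gstm4*).
Gstm1: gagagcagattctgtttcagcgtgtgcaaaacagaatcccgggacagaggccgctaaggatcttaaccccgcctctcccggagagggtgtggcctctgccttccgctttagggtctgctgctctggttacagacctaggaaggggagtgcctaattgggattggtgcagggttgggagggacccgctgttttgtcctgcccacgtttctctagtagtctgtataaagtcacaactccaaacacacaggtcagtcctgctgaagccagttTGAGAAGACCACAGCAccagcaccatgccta
Gstm2: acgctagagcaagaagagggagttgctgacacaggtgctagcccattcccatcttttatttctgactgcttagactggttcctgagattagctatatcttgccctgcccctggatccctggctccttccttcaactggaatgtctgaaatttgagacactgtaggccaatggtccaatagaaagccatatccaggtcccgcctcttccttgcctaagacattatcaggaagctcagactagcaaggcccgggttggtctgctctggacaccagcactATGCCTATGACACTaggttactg
Gstm3: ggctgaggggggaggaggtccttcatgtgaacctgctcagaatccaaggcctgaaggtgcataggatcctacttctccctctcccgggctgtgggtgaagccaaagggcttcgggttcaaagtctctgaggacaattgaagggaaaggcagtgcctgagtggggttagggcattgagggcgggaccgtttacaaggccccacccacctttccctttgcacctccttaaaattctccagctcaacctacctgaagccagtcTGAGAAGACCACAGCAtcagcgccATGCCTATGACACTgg
Gstm4: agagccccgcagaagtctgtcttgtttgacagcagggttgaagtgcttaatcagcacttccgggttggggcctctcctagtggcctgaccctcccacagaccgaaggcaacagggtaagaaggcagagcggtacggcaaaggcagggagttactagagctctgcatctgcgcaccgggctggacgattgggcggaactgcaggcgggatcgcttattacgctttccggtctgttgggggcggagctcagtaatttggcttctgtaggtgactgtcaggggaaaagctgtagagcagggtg
The *Gstm1* window shared a run of 16 bases with that of *Gstm3*, and the *Gstm2* window a run of 14 bases beginning with ATG with that of *Gstm3*. All of these runs lay after the transcription start. The *Gstm4* window shared no run of that length with the other 3.

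Windows of 44 members were in the RefSeq set (54 windows in all) and were searched on both strands for 3 motifs. The core of the antioxidant response element, TGACNNNGC, stood in 12.4% of all 32851 windows and in those of 3 members, none of which was called. These were *Gsta3*, *Gstm5* and *Gstm7*, shown here with the match in capitals and 10 bases on either side.
Gsta3: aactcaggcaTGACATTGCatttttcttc
Gstm5: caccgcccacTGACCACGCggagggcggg
Gstm7: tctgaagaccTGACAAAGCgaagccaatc
They lie in GRCm38.p6 at chr1:21240454-21240482 on the plus strand, at chr3:107895802-107895830 on the plus strand and at chr3:107931725-107931753 on the minus strand, and the match starts 121, 42 and 129 bases before the transcription start. The E box CACGTG, a motif related to the paired boxes of the element that ChREBP binds, stood in 7.15% of all windows and in none of the members'. The core of the motif of HNF1, GTTAAT, stood in 7.10% of all windows and in 11 of the 54 (20.4%), among them those of *Ugt1a1*, *Ugt1a6a*, *Ugt1a9*, *Ugt2a3*, *Sult1a1* and *Sult3a2*, and in none of the 12 *Gstm* windows. No overlap between motifs was removed, and absence from these 300 bases does not bear on sites elsewhere.

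Of the 52 members, 43 had a mean of at least 1 FPKM and were tested among 10866 genes, and 9 were below. A gene was called when its unadjusted p was under 0.05 and its change at least 1.5-fold. Of the 43 members tested, 6 were called lower in KPF (14%, against 3.98% of all genes tested) and 2 higher (4.65%, against 5.83%). In either direction 9.82% of all genes were called. At an adjusted p under 0.05 (Benjamini-Hochberg, edgeR) neither a member nor any other gene passed (0.0% of all genes). The lowest adjusted p among the members was 0.416. At an unadjusted p under 0.05 alone 8 members and 10.8% of all genes (1177) passed. DESeq2 put 156 genes under an adjusted p of 0.05, among them *Gstm1*, *Gstm3*, *Gstm4* and *Sult2a8*, and limma on log2(deposited FPKM + 1) none. The log2 fold change was below 0 in 30 of the 43 members and in 48.6% of all genes. With library totals in place of TMM the median log2 fold change of all genes moved from 0.02 to −0.12, the calls over all genes from 634 higher and 433 lower to 371 higher and 729 lower, and the calls among members to 1 higher and 7 lower. Every WPF library was above every KPF library for 5 members (8.15% of all genes) and the reverse held for 2 (7.55% of all genes).

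**Figure D1:**
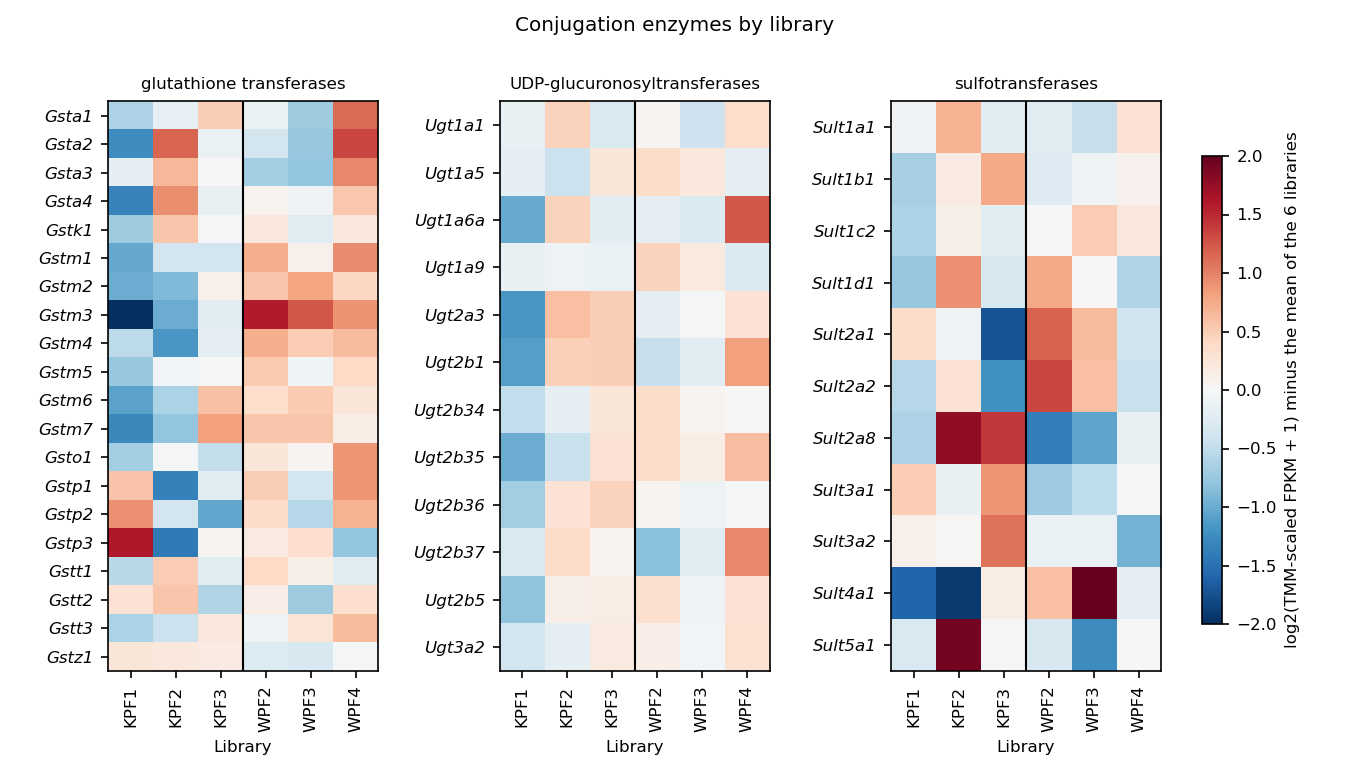
Level of each of the 43 tested members (rows) in each library (columns), as log2(TMM-scaled FPKM + 1) minus the mean of the 6 libraries, by family; the black line parts KPF from WPF, and colours end at 2 in either direction. *Gstm1* to *Gstm4* are below their mean in nearly all KPF libraries and above it in WPF, and KPF1 is the lowest library for 12 of 20 glutathione transferases and 8 of 12 UDP-glucuronosyltransferases.

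Calls differed in number and direction from family to family, a difference that was not tested. Of 20 glutathione transferases tested, 5 were called lower (25.0%, against 3.98% of all genes tested) and none higher (5.83% of all genes). Their median log2 fold change was −0.52. None of 12 UDP-glucuronosyltransferases was called (median −0.27), where 9.82% of all genes were called in either direction. Of 11 sulfotransferases 2 were called higher (18.2%, against 5.83% of all genes) and 1 lower (9.09%, against 3.98%), with a median of 0.29. The median over all genes tested was 0.02. KPF1 gave the lowest of the 6 values for 23 of the 43 members, whereas it was lowest for 23.3% of all genes. Without KPF1, 4 members were called lower and 3 higher, where 2.66% of all genes were called lower and 4.46% higher. Without KPF2, the library with the highest summed stellate cell and fibroblast markers, 7 were lower and 3 higher (4.48% and 5.06% of all genes). No member was called higher without WPF2 (3.27% of all genes) or without WPF3 (2.98% of all genes). The median of the glutathione transferases was −0.34 without KPF1 and −0.28 without WPF4, that of the UDP-glucuronosyltransferases −0.08 and −0.03, and that of the sulfotransferases was 0.50 without WPF4, 0.14 without KPF3 or WPF3 and −0.06 without KPF2.

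**Figure D2:**
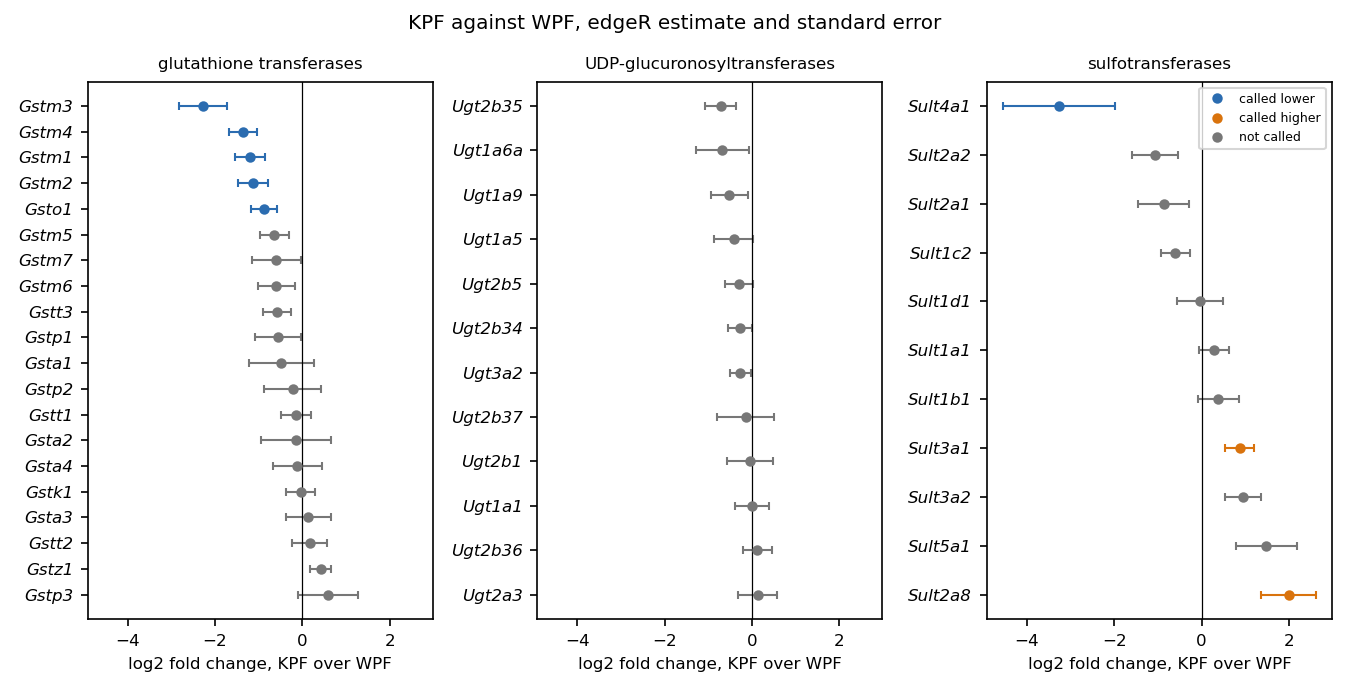
Log2 fold change of KPF over WPF (points) with its standard error (bars) from edgeR for the 43 tested members, by family and in order of size; blue points were called lower, orange points higher and grey points not called. The 5 blue glutathione transferases lie between −2.27 and −0.88, all 12 UDP-glucuronosyltransferases are grey, and of the called sulfotransferases *Sult4a1* and *Sult2a8* stand at the ends of their panel.

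*Gstm1* was the most abundant member, with 28.0% of the summed level of all 52 over the 6 libraries, and the 4 mu-class genes *Gstm1* to *Gstm4* were lower in KPF. *Gstm1* (ENSMUSG00000058135), the main mu-class enzyme of mouse liver, had 320.2, 496.9 and 500.0 FPKM in KPF1, KPF2 and KPF3 and 1076, 695.9 and 1254 FPKM in WPF2, WPF3 and WPF4. All WPF values were above all KPF values, and the level was 2.30-fold higher in WPF (log2 fold change −1.20, SE 0.33, unadjusted p = 0.00762, adjusted p = 0.430 by edgeR). An exact permutation test over the 20 divisions of the libraries gave p = 0.1, the smallest p that 3 against 3 allows.

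*Gstm3* (ENSMUSG00000004038) had the largest fold change of the 4. Its level was 11.7, 35.3 and 60.6 FPKM in KPF and 216.6, 170.4 and 133.4 FPKM in WPF. The groups did not overlap, KPF1 was far below the other KPF libraries, and the log2 fold change was −2.27 (SE 0.56, unadjusted p = 0.00392, adjusted p = 0.430 by edgeR). Without KPF1 it was −1.86 and still called. Of the 100-base words in its GENCODE transcripts 13.8% also occurred in other genes, so part of its reads cannot be assigned with certainty. This share was 5.86% for *Gstm1*, 0.357% for *Gstm2* and 0.0% for *Gstm4*.

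*Gstm2* (ENSMUSG00000040562) had 26.9, 28.9 and 58.1 FPKM in KPF and 80.3, 94.7 and 72.7 FPKM in WPF (log2 fold change −1.12, SE 0.34, unadjusted p = 0.0124, adjusted p = 0.430 by edgeR). *Gstm4* (ENSMUSG00000027890), the least abundant of the 4, had 4.58, 2.59 and 6.14 FPKM in KPF and 12.3, 10.4 and 11.5 FPKM in WPF (log2 fold change −1.36, SE 0.32, unadjusted p = 0.00304, adjusted p = 0.416 by edgeR). In both genes the lowest WPF library stood above the highest KPF library. *Gstm2*, *Gstm3* and *Gstm4* kept their call under all 15 alternative settings, and *Gstm1* under 14, all but the replicate block.

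The other 3 mu-class genes were measured lower in KPF by smaller amounts and were not called. *Gstm5* had 2.83, 5.19 and 5.34 FPKM in KPF and 8.25, 5.06 and 7.52 FPKM in WPF (log2 fold change −0.64, unadjusted p = 0.10 by edgeR). *Gstm6* had 10.1, 14 and 33.7 FPKM in KPF and 28.6, 32.4 and 26.3 FPKM in WPF (log2 fold change −0.59, unadjusted p = 0.204 by edgeR), and *Gstm7* had 3.69, 5.69 and 19.4 FPKM against 15.9, 15.8 and 11.8 FPKM (log2 fold change −0.60, unadjusted p = 0.32 by edgeR). For *Gstm6* and *Gstm7* KPF3 was the highest library of all, while KPF1 and KPF2 were below every WPF library, so the groups overlapped through KPF3 alone. *Gstm5* overlaps a gene on the opposite strand, 4933431E20Rik, which had 625 reads, and whether counting used strand is not given in the sources used here.

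**Figure D3:**
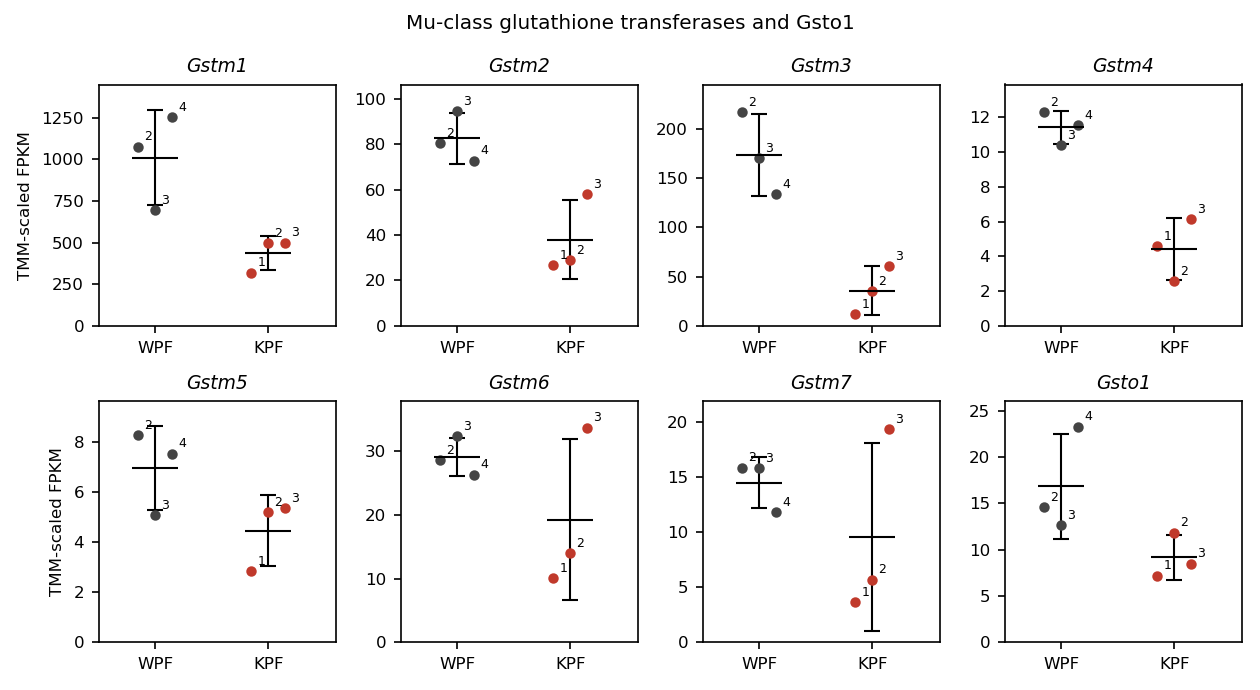
TMM-scaled FPKM of the 7 *Gstm* genes and *Gsto1* in each library (points, with replicate numbers), with mean (line) and SD (bar) of 3 libraries per group, on linear axes from 0. In the panels of *Gstm1* to *Gstm4* all WPF points stand above all KPF points, and in those of *Gstm6* and *Gstm7* KPF3 stands above the WPF points.

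Summed over the 7 genes, the *Gstm* level was 380.0, 588.6 and 683.2 FPKM in KPF and 1438, 1025 and 1517 FPKM in WPF, a ratio of 0.415 (exact permutation p = 0.1). *Gstm1* made up 80.6% ± 6.44 of this sum in KPF and 75.1% ± 7.37 in WPF (SD, n = 3). The sums and shares given here therefore contain *Gstm1* and are not independent of it. The ratio was 1.06 for the alpha class, 0.836 for pi, 0.94 for theta and 1.19 for kappa, omega and zeta together. All glutathione transferases together came to 1174 ± 79.8 FPKM in KPF and 1960 ± 417 FPKM in WPF (SD, n = 3; exact permutation p = 0.1). The mu class made up 35.1, 48.7 and 55.5% of that sum in KPF and 70.0, 68.1 and 65.3% in WPF, so its share was lower in every KPF library (46.4% ± 10.4 against 67.8% ± 2.35, SD, n = 3; exact permutation p = 0.1). Within the mu class, *Gstm3* made up 5.98% ± 2.90 in KPF and 13.5% ± 4.15 in WPF (SD, n = 3; exact permutation p = 0.2), with overlap.

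Outside the mu class 1 of the 13 glutathione transferases tested was called, and it was lower in KPF. Of all genes tested 3.98% were called lower and 9.82% in either direction. *Gsto1* (ENSMUSG00000025068, chr19:47843409-47853229), an omega-class enzyme that reduces dehydroascorbate and methylated arsenic compounds, had 7.20, 11.9 and 8.50 FPKM in KPF and 14.6, 12.7 and 23.3 FPKM in WPF. The groups did not overlap, but WPF3 and KPF2 were close (log2 fold change −0.88, SE 0.30, unadjusted p = 0.0206, adjusted p = 0.430 by edgeR). The call was lost without KPF1 (log2 fold change −0.73, unadjusted p = 0.0661 by edgeR), without KPF3 (−0.82, unadjusted p = 0.0581) or without WPF4 (−0.58, unadjusted p = 0.0709).

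*Gstz1*, the zeta-class enzyme that isomerises maleylacetoacetate in tyrosine breakdown, was higher in every KPF library. It had 152.8, 150.1 and 145.0 FPKM in KPF and 106.4, 103.0 and 126.5 FPKM in WPF, but the change was under 1.5-fold and was not called (log2 fold change 0.41, SE 0.24, unadjusted p = 0.119 by edgeR). *Gstk1*, the kappa-class enzyme of mitochondria and peroxisomes, ranged from 12.8 to 32.0 FPKM in KPF and from 18.0 to 25.1 FPKM in WPF (log2 fold change −0.04).

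The pi class varied more among KPF dams than between the groups. *Gstp1*, the most abundant of it, had 197.6, 51.4 and 114.9 FPKM in KPF and 187.1, 102.5 and 246.4 FPKM in WPF (log2 fold change −0.56, SE 0.52, unadjusted p = 0.315 by edgeR). *Gstp3* had 130.5, 15.3 and 43.8 FPKM in KPF and 48.3, 53.8 and 24.4 FPKM in WPF (log2 fold change 0.59, SE 0.69, unadjusted p = 0.424 by edgeR). In both, KPF1 was the highest KPF library and KPF2 the lowest of all 6. *Gstp1* shares 25.1% of its 100-base words with *Gstp2* and *Gstp2* shares 46.9% of its own with other genes.

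Among alpha-class enzymes *Gsta3*, abundant in mouse liver, ranged from 80.0 to 143.6 FPKM in KPF and from 52.7 to 177.5 FPKM in WPF (log2 fold change 0.13). *Gsta4*, which acts on 4-hydroxynonenal, ranged from 3.46 to 20.5 FPKM in KPF and from 9.66 to 15.4 FPKM in WPF (log2 fold change −0.12). Neither group of values lay outside the other, and none of the 4 alpha-class genes was called, *Gsta1* and *Gsta2* standing at log2 fold changes of −0.49 and −0.14. The theta class, which acts on small halogenated compounds, gave a like picture, with *Gstt1* at 50.9 to 107.6 FPKM in KPF and 64.7 to 99.98 FPKM in WPF (log2 fold change −0.15). *Gstt2* ranged from 25.0 to 57.1 FPKM in KPF and from 23.2 to 49.0 FPKM in WPF (log2 fold change 0.17). *Gstt3* (−0.57) and the pi-class *Gstp2* (−0.23) were not called either, and *Gstt4* was below the minimum of 1 FPKM.

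No UDP-glucuronosyltransferase was called, where 9.82% of all genes tested were called in either direction. The levels of all 12 overlapped between the groups. Of all genes tested, WPF was above without overlap in 8.15% and KPF in 7.55%. Whether the 12 genes differ from these shares was not tested. The summed level of the family was 256.1, 487.9 and 537.4 FPKM in KPF and 488.9, 411.7 and 501.5 FPKM in WPF, or 427 ± 150 against 467 ± 48.6 FPKM (SD, n = 3; exact permutation p = 0.8). KPF1 was the low library: it gave the lowest value for 8 of the 12 genes and the highest for none. *Ugt2b* genes, whose products glucuronidate steroids and bile acids, made up 87.9% ± 1.02 of the sum in KPF and 88.2% ± 1.74 in WPF (SD, n = 3; exact permutation p = 0.9).

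*Ugt2b36* had the highest mean of the family over the 6 libraries, although *Ugt2b5* was higher in WPF. *Ugt2b36* had 97.4, 193.6 and 217.8 FPKM in KPF and 166.4, 147.2 and 154.2 FPKM in WPF (log2 fold change 0.12, SE 0.33, unadjusted p = 0.726 by edgeR). *Ugt2b5* had 84.0, 159.2 and 163.0 FPKM in KPF and 182.6, 139.2 and 180.3 FPKM in WPF (log2 fold change −0.31, SE 0.32, unadjusted p = 0.368 by edgeR). KPF1 was below all other libraries for both genes. KPF2 and KPF3 were above every WPF library for *Ugt2b36* and within the WPF range for *Ugt2b5*. KPF1 was also the lowest library for *Ugt2a3*, which acts on bile acids, with 10.7, 38.9 and 36.1 FPKM in KPF and 22.1 to 31.3 FPKM in WPF (log2 fold change 0.13).

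*Ugt1a1*, the enzyme of bilirubin glucuronidation, ranged from 2.29 to 4.57 FPKM in KPF and from 2.05 to 4.21 FPKM in WPF, and its log2 fold change was 0.00 (SE 0.38). *Ugt1a6a*, which prefers flat phenols, had 1.75, 6.65 and 3.74 FPKM in KPF and 3.89, 3.50 and 12.1 FPKM in WPF (log2 fold change −0.68, SE 0.61, unadjusted p = 0.293 by edgeR), and WPF4 alone was above the highest KPF library. The *Ugt1a* genes share their last exons, and 50.4 to 70.9% of the 100-base words of each also occurred in another gene. How reads on shared exons were counted is not given in the sources used here, so these levels are uncertain. *Ugt3a2* ranged from 10.5 to 15.6 FPKM in KPF and from 13.1 to 17.2 FPKM in WPF (log2 fold change −0.26). *Ugt3a1*, below the minimum of 1 FPKM, ranged from 0.265 to 2.05 FPKM in KPF and from 0.474 to 0.987 FPKM in WPF, and both *Ugt3a* enzymes use sugars other than glucuronic acid. The other *Ugt* genes tested had log2 fold changes from −0.715 (*Ugt2b35*, unadjusted p = 0.0838 by edgeR) through −0.52 (*Ugt1a9*), −0.42 (*Ugt1a5*), −0.27 (*Ugt2b34*) and −0.14 (*Ugt2b37*) to −0.05 (*Ugt2b1*), and *Ugt1a6b*, *Ugt1a7c* and *Ugt1a10* were each below 0.2 FPKM on average.

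Among sulfotransferases the calls went in both directions, and all 3 called genes overlapped between the groups. *Sult2a8* (ENSMUSG00000030378, chr7:14144611-14180694), a hydroxysteroid sulfotransferase of mouse liver that sulfates bile acids, had 18.5, 102.2 and 79.2 FPKM in KPF and 10.6, 13.5 and 26.1 FPKM in WPF. KPF2 and KPF3 were above every WPF library and KPF1 lay between WPF3 and WPF4 (3.98-fold higher in KPF, log2 fold change 1.99, SE 0.63, unadjusted p = 0.0145, adjusted p = 0.430 by edgeR). Without KPF1 the log2 fold change was 2.44 (unadjusted p = 0.000918 by edgeR), and the call was lost without WPF2 (1.75, unadjusted p = 0.0536) or without WPF3 (1.86, unadjusted p = 0.0507). With limma on log2(FPKM + 0.1) it was lost too (1.65, unadjusted p = 0.0528).

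*Sult3a1* (ENSMUSG00000069668, chr10:33733717-33755528), which sulfates amines, had 87.4, 54.9 and 113.7 FPKM in KPF and 36.5, 42.7 and 60.9 FPKM in WPF. KPF2 and WPF4 alone crossed (log2 fold change 0.87, SE 0.33, unadjusted p = 0.0325, adjusted p = 0.434 by edgeR). The call was lost without KPF1 (0.85, unadjusted p = 0.0644 by edgeR), KPF3 (0.61, unadjusted p = 0.111), WPF2 (0.72, unadjusted p = 0.112) or WPF3 (0.81, unadjusted p = 0.0954), and when library totals replaced TMM (0.69, unadjusted p = 0.0982). *Sult3a1* also lost its call with limma on log2(FPKM + 1) (0.70, unadjusted p = 0.0817) and on log2(FPKM + 0.1) (0.72, unadjusted p = 0.102). Its neighbour *Sult3a2*, named after its values were seen, was higher in every KPF library, with 9.42, 8.85 and 19.5 FPKM against 7.81, 7.86 and 4.03 FPKM (log2 fold change 0.94, SE 0.41, unadjusted p = 0.0536 by edgeR), and was not called.

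*Sult4a1* (ENSMUSG00000018865, chr15:83960298-83989955), known as a brain sulfotransferase, had 0.379, 0.106 and 3.60 FPKM in KPF and 5.30, 31.0 and 2.63 FPKM in WPF. It was called lower (log2 fold change −3.26, SE 1.29, unadjusted p = 0.0369, adjusted p = 0.445 by edgeR), but most of the WPF level came from WPF3, and KPF3 was above WPF4. Without WPF3 the log2 fold change was −1.54 (unadjusted p = 0.232 by edgeR), and the call was also lost without KPF1 (−2.82, unadjusted p = 0.0998) or KPF2 (−2.72, unadjusted p = 0.0637). *Sult5a1*, whose substrates are not known, had 5.58, 29.9 and 6.98 FPKM in KPF and 5.53, 2.42 and 7.24 FPKM in WPF. KPF2 stood far above all others, and without it the log2 fold change went from 1.48 (unadjusted p = 0.0663 by edgeR) to 0.30.

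The most abundant sulfotransferase was *Sult1a1*, the phenol sulfotransferase, with 275.9, 471.4 and 247.0 FPKM in KPF and 248.8, 211.0 and 354.7 FPKM in WPF (log2 fold change 0.29, SE 0.35, unadjusted p = 0.433 by edgeR). *Sult1d1*, which sulfates catecholamines, had 20.3, 66.9 and 28.0 FPKM in KPF and 60.8, 34.7 and 22.8 FPKM in WPF (log2 fold change −0.04). The groups overlapped in both genes. The other *Sult1* genes tested were not called either, *Sult1b1* at a log2 fold change of 0.38 and *Sult1c2* at −0.60.

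*Sult2a1*, which sulfates steroids and bile acids, had 60.3, 43.8 and 13.4 FPKM in KPF and 106.6, 72.5 and 35.0 FPKM in WPF (log2 fold change −0.86, SE 0.58, unadjusted p = 0.177 by edgeR). It lies on the same chromosome as *Sult2a8*, and the 2 genes had their estimates on opposite sides of 0. *Sult2a8* made up 19.1, 56.4 and 76.0% of the summed *Sult2* level in KPF and 5.61, 10.5 and 32.2% in WPF (exact permutation p = 0.2), while the sum itself was 128 ± 46.6 FPKM in KPF and 133 ± 53.6 FPKM in WPF (SD, n = 3; exact permutation p = 0.9). *Sult2a1* shares 11.4% of its 100-base words with *Sult2a2*, and *Sult2a8* shares 0.0%. *Sult2a2* had 18.1, 33.5 and 11.3 FPKM in KPF and 70.4, 42.1 and 19.8 FPKM in WPF and was not called (log2 fold change −1.07, SE 0.53, unadjusted p = 0.0800 by edgeR). *Sult2a5*, below the minimum of 1 FPKM and named after its values were seen, had 0 reads in each KPF library and 5, 4 and 2 reads in WPF2, WPF3 and WPF4, too few for a fold change. *Sult1e1*, *Sult2a7* and *Sult2b1* were also below that minimum, with means of 0.161, 0.345 and 0.0568 FPKM over the 6 libraries.

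**Figure D4:**
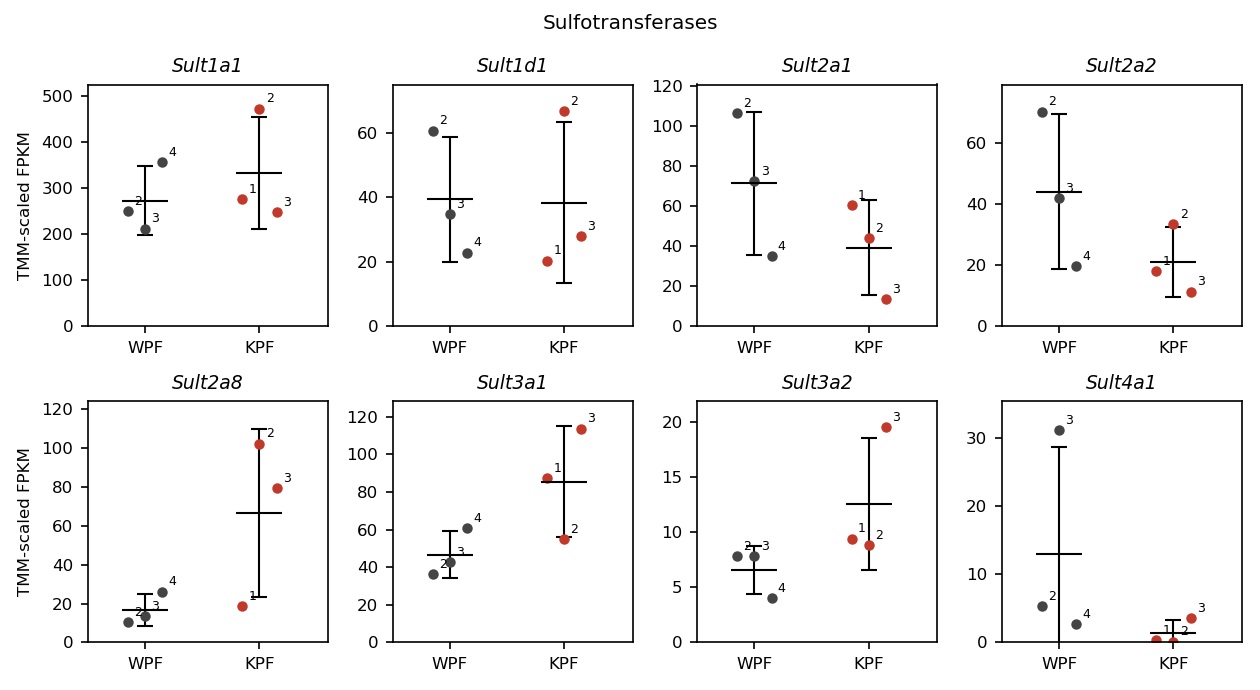
TMM-scaled FPKM of 8 sulfotransferases in each library (points, with replicate numbers), with mean (line) and SD (bar, ended at 0 for *Sult4a1*) of 3 libraries per group, on linear axes from 0. KPF2 and KPF3 stand above all WPF points for *Sult2a8*, WPF3 stands alone for *Sult4a1*, and the groups overlap in every panel but that of *Sult3a2*.

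Genes that supply the cofactors, transport the conjugates or control the enzymes were taken from 6 lists of 53 genes, of which 44 were tested. In all 3 were called lower in KPF (3.98% of all genes tested were) and none higher (5.83% of all genes), with a median log2 fold change of −0.06. Without KPF1 or without WPF3 1 was called lower (2.66% and 2.26% of all genes were), and without KPF2 5 were (4.48% of all genes). Of the list of glutathione supply and turnover 1 of 9 tested was called, of the membrane glutathione transferases 1 of 2, and of the xenobiotic regulators 1 of 11. None of 5 genes for UDP-glucuronic acid supply and glucuronide removal, 10 for PAPS supply and sulfate handling and 7 transporters of conjugates, the *Slco1* uptake carriers among them, was called.

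*Mgst1*, the membrane-bound glutathione transferase of the endoplasmic reticulum and mitochondria, was more abundant than any cytosolic enzyme but *Gstm1* in WPF. It had 234.3, 237.9 and 272.1 FPKM in KPF and 375.3, 387.6 and 417.1 FPKM in WPF. The gap between the groups was wider than the range within either (log2 fold change −0.66, SE 0.23, unadjusted p = 0.0230, adjusted p = 0.430 by edgeR; exact permutation p = 0.1). With 1 library fewer the log2 fold change stayed between −0.74 and −0.63, and the call was lost without KPF1 (unadjusted p = 0.0596 by edgeR), KPF2 (0.0521), WPF3 (0.0647) or WPF4 (0.0527).

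*Nfe2l2*, which encodes NRF2, had 8.58, 23.7 and 32.9 FPKM in KPF and 41.5, 80.4 and 37.7 FPKM in WPF. All WPF values were above all KPF values, with WPF3 and KPF1 at the ends (log2 fold change −1.29, SE 0.52, unadjusted p = 0.0393, adjusted p = 0.450 by edgeR). The call was lost without KPF1 (−0.91, unadjusted p = 0.0676 by edgeR), KPF2 (−1.37, unadjusted p = 0.0574) or WPF3 (−0.87, unadjusted p = 0.151). *Gclc*, the catalytic subunit of the enzyme that limits glutathione synthesis and a known target of NRF2, had 25.6, 24.2 and 39.9 FPKM in KPF and 36.1, 41.5 and 39.2 FPKM in WPF and was not called (log2 fold change −0.38, SE 0.27, unadjusted p = 0.196 by edgeR).

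*G6pdx*, the enzyme of the pentose phosphate pathway that makes NADPH for glutathione reduction, had 1.14, 1.75 and 1.06 FPKM in KPF and 5.16, 9.42 and 1.14 FPKM in WPF. WPF4 was at the level of the KPF libraries, so the difference came from WPF2 and WPF3 (log2 fold change −1.98, SE 0.68, unadjusted p = 0.0199, adjusted p = 0.430 by edgeR). Without WPF3 it was −1.25 (unadjusted p = 0.0902 by edgeR), without KPF1 −1.89 (unadjusted p = 0.0592) and without KPF3 −1.85 (unadjusted p = 0.0629).

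**Figure D5:**
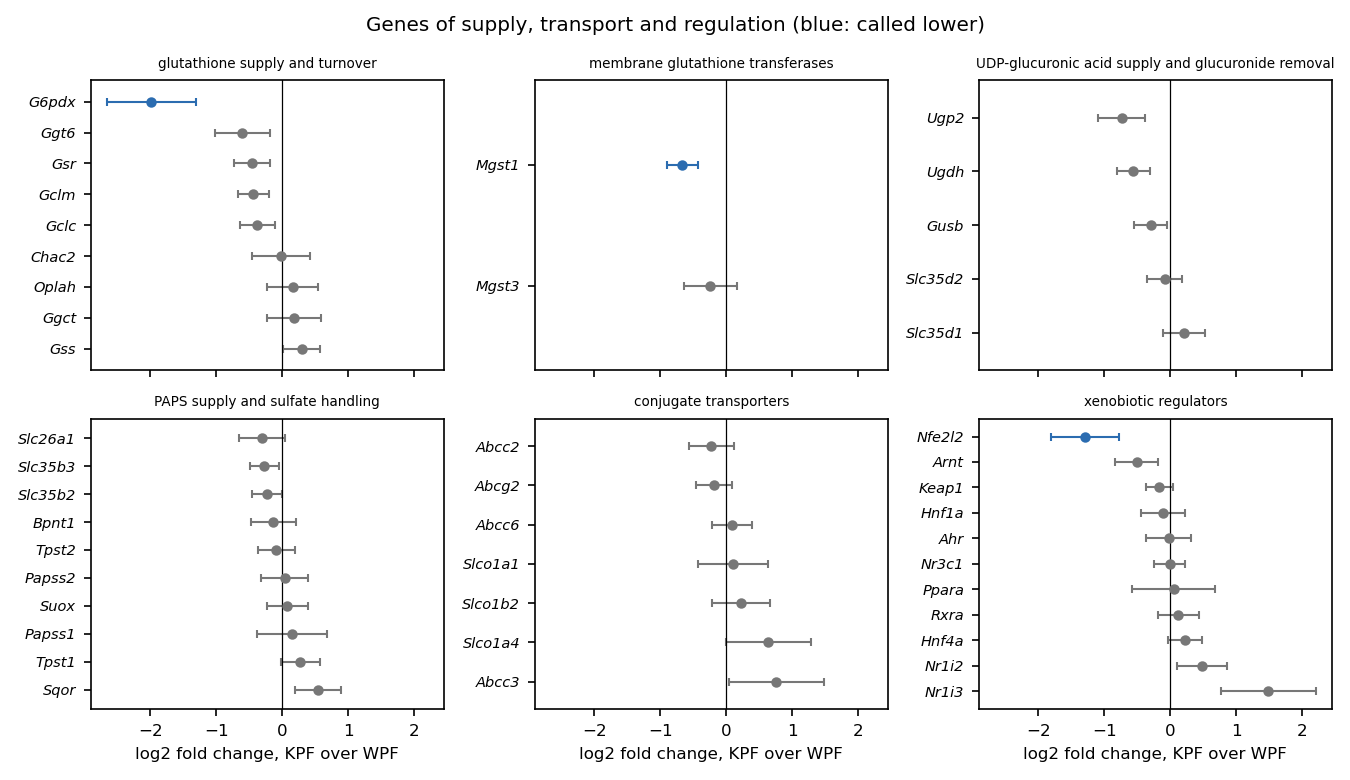
Log2 fold change of KPF over WPF (points) with its standard error (bars) from edgeR for the 44 tested genes of supply, transport and regulation, by list; blue points were called lower. Only *G6pdx*, *Mgst1* and *Nfe2l2* are blue.

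The gene with the highest mean over the 6 libraries in each other list, and in that of the regulators, was not called. *Ugp2*, which makes UDP-glucose, ranged from 18.0 to 30.5 FPKM in KPF and from 24.2 to 51.4 FPKM in WPF (log2 fold change −0.74, SE 0.35, unadjusted p = 0.0719 by edgeR). It was called lower under 8 of the 15 alternative settings and not called under the other 7. *Papss2*, the liver PAPS synthase, ranged from 38.9 to 97.3 FPKM in KPF and from 59.3 to 76.7 FPKM in WPF (log2 fold change 0.03). *Slco1b2*, an uptake carrier of bile acids and conjugates, ranged from 41.2 to 112.7 FPKM and from 42.4 to 76.8 FPKM (log2 fold change 0.23), and *Hnf4a*, a factor of hepatocyte identity, from 83.5 to 121.8 FPKM and from 83.5 to 85.2 FPKM (log2 fold change 0.22). In all 4 genes the ranges of the groups overlapped. *Nr1i3*, the gene of the xenobiotic receptor CAR, named after its values were seen, was above *Hnf4a* in the KPF mean. It had 123.4, 215.2 and 26.8 FPKM in KPF and 49.6, 20.2 and 60.6 FPKM in WPF and was not called (log2 fold change 1.49, SE 0.72, unadjusted p = 0.0743 by edgeR). KPF1 and KPF2 were above every WPF library and KPF3 lay within their range.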

How the data were processed

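Liver RNA of 6 dams (3 KPF, 3 WPF) was analysed. The authors deposited a table with raw read counts and FPKM values per Ensembl gene, with exonic length and coordinates. The submitters' notes name cutadapt 1.9.1, HISAT2 2.2.1, HTSeq 0.6.1, DESeq2 and GRCm39, while parameters, annotation release and strand setting are not given in the sources used here. The deposited FPKM equal the counts divided by exonic length and by the total of counted reads. Gene symbols were taken from a table of Ensembl IDs (52073 of 56691 matched).

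Counts were tested with edgeR 4.0.16 (R 4.3.3; quasi-likelihood test, TMM factors, Benjamini-Hochberg adjustment) over 10866 genes with a mean of at least 1 FPKM, all 6 libraries in 1 fit. Members below took their values from a fit of 18855 genes with at least 10 reads. The script was tested on simulated counts. Exact permutation tests were two-sided, and each library is 1 sample, so p-values measure the spread between these samples, which may be technical in part. Alternatives were no filter, at least 10 reads, at least 5 FPKM, library totals, DESeq2's size factors, DESeq2 1.42.0, limma 3.58.1 on log2(FPKM + 1) and log2(FPKM + 0.1), leaving out each library, and a replicate block. The limma fits took the deposited FPKM, without TMM factors.

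Members and lists were chosen with earlier results of these data known. Named were every called member, the 2 most abundant of each subfamily, called genes and the most abundant gene of each supply list, and *Mlxipl*. *Gstm5*, *Gstm6* and *Gstm7* complete the mu class. *Sts* could not be matched to a row of the table. Shared 100-base words were counted in GENCODE M21 transcripts. Promoter windows are from RefSeq, GRCm38.p6, a build kept apart from the coordinates of the count table.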

Additional observations from a re-analysis of the deposited data

How the results depend on the processing

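The 15 alternatives left the direction of every called member unchanged. Some uncalled genes gained a call in part of them. These were *Ugp2* (lower in 8), *Sult5a1* (higher in 5), *Sult2a1* (lower in 2), *Gsta3* (higher in 2), *Ugt2a3* (higher in 1) and *Gclc* (lower in 1). With no filter edgeR called 5 members higher (5.84% of all genes were) and 11 lower (3.37%). Of the supply, transport and regulator genes it called 1 higher and 5 lower. Library totals gave 1 member higher (3.41% of all genes were) and 5 supply genes lower (6.71%). DESeq2 gave 4 members and 1 supply gene higher (6.16% of all genes). Limma on log2(FPKM + 1) gave 1 member higher (2.19% of all genes) and a sulfotransferase median of 0.07. On log2(FPKM + 0.1) it gave 0 members higher (2.37% of all genes) and a median of 0.06. Without a filter edgeR put 286 genes under an adjusted p of 0.05, among them *Gstm3*, *Gstm4*, *Sult2a8* and *Sult4a1*. Library totals and limma also moved calls over all genes towards lower, from 59.4% higher to 33.7% (totals), 30.1% (+ 1) and 27.4% (+ 0.1). The limma fits used the deposited FPKM, which are scaled to library totals without TMM, so these settings share that scaling. Whether the scaling accounts for the shift was not tested.

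Replicates 2 and 3 of either group are separate dams. The correlation of same-numbered libraries, each taken as its difference from the mean of its group, was 0.0348 (replicate 2) and 0.000337 (replicate 3). Differently numbered pairs were not compared, so these values cannot decide whether same-numbered samples share more than the number. With the replicate number as a block 7 members and 5 supply genes were higher (6.26% of all genes were), and 6 members were lower (5.07%). The medians were 0.18 (UDP-glucuronosyltransferases) and 0.57 (sulfotransferases). KPF1 and WPF4 carry numbers that no library of the other group has. The group estimates under the block therefore rest on replicates 2 and 3 alone. Under the block *Gstm1* (log2 fold change −0.80, unadjusted p = 0.0875 by edgeR), *Gsto1* (−0.44, unadjusted p = 0.107) and *Mgst1* (−0.58, unadjusted p = 0.136) were not called. The block turned uncalled estimates of *Gsta4* (0.43), *Gstk1* (0.29), *Gstp3* (−0.96), *Ugt1a6a* (0.44) and *Ugt2b5* (0.02).

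Leaving out each library in turn gave 0 to 3 members higher and 4 to 9 lower, and 0 to 1 supply genes higher and 1 to 5 lower. Of all genes 2.98 to 8.37% were called higher and 2.26 to 6.52% lower. Both shares were highest without KPF3, where 9 members were lower. The medians were −0.65 to −0.28 (glutathione transferases), −0.45 to −0.03 (UDP-glucuronosyltransferases) and −0.06 to 0.50 (sulfotransferases). The estimates that changed sign were all of uncalled genes: *Gsta3* (−0.17 to 0.94), *Gsta4* (−0.93 to 0.31), *Gstk1* (−0.42 to 0.23), *Gstp3* (−0.51 to 1.04), *Gstt1* (−0.53 to 0.06), *Gstt2* (−0.09 to 0.45), *Papss2* (−0.34 to 0.31), *Slco1b2* (−0.37 to 0.49), *Sult1a1* (−0.06 to 0.52), *Sult1d1* (−0.72 to 0.42), *Ugt1a1* (−0.36 to 0.26), *Ugt1a6a* (−1.25 to 0.12), *Ugt2a3* (−0.16 to 0.52) and *Ugt2b36* (−0.10 to 0.40). Other settings turned *Papss2* (−0.03 with no filter, −0.02 with at least 10 reads, −0.11 with totals, −0.17 and −0.18 with limma), *Ugt1a1* (−0.06, −0.05, −0.13, −0.09 and −0.12 in the same order), *Ugt2a3* (−0.03 with totals, −0.17 and −0.19 with limma), *Ugt2b36* (−0.02, −0.08 and −0.08), *Gsta3* (−0.06 with totals) and *Slco1b2* (−0.00 with both limma fits). Genes of few reads are limited by counting error.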
